A study of Mus musculus with 18 samples.

Results

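Translational efficiency (TE), the ribosome footprints on a coding sequence per RNA of the same gene, was described for 11969 genes of the normal mouse cerebellum. These were the genes, among 22523 with a footprint count, that had at least 10 counts in each of 6 wild-type libraries. Of these libraries, 3 were ribosome profiling and 3 were RNA sequencing, out of 18 libraries in the series. The series was made to compare C57BL/6J (B6J) mice with mice lacking *Gtpbp1* or *Gtpbp2*, GTPases that act on stalled ribosomes, and only the wild-type libraries enter the results below. B6J mice carry a hypomorphic mutation of n-Tr20, a brain-expressed tRNA gene for arginine with the anticodon UCU, which reads AGA codons, so wild type here means normal for *Gtpbp1* and *Gtpbp2*. All libraries came from the cerebellum at 3 weeks of age, from mice of both sexes, with 1 cerebellum for each footprint library. RNA was selected by its poly(A) tail. All RNA libraries carry the label batch 1 and all footprint libraries batch 2, so batch and assay cannot be told apart. The labels do not say whether an RNA and a footprint library of the same number share a mouse.

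Ribosome profiling sequences the piece of mRNA that a ribosome shields from nuclease, and reports which mRNAs carry ribosomes and how densely. Ribosome density depends on how often ribosomes start on an mRNA and on how fast they leave it, and features of the 5′ untranslated region (UTR) such as upstream start codons are known to change the rate of starting. The cerebellar cortex consists mostly of granule neurons, with Purkinje cells as its output neurons and with interneurons, Bergmann glia, oligodendrocytes and vessels among them.

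Each footprint level below is a count per kilobase of coding sequence (CDS), scaled to library size. Each RNA level is an estimated count per kilobase of effective transcript length, scaled the same way by the TMM method. A log2 TE of 0 is therefore the centre of the genes in these libraries and not a number of ribosomes per mRNA. The TE of a gene is called high where the adjusted p was at most 0.05 in the edgeR quasi-likelihood test with Benjamini-Hochberg adjustment over all 11969 genes and log2 TE was at least 1, and low where it was −1 or less. A 2-fold difference in density from the centre is thus the least that was called. The same test was also run by counts, with no division by length on either side. SE below is the standard error of the difference in mean log2 level between the 3 footprint and 3 RNA libraries. The log2 TE printed with it is the estimate of the edgeR fit, which can differ from that difference where libraries vary widely. Levels are given in the order of libraries 1, 2 and 3.

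Footprint libraries held 4428395, 4489970 and 6523974 counts, and RNA libraries 49090501, 50301391 and 52114400. Between footprint libraries the rank correlation over genes was 0.958 to 0.975 and the median absolute log2 difference 0.25 to 0.33, and between RNA libraries these were 0.982 to 0.990 and 0.13 to 0.19. Footprint libraries thus agreed less with each other, at lower depth. Chi-square per degree of freedom, which grows with depth, was 11.3 to 25.5 for footprints and 16.1 to 48.0 for RNA, and which assay varied more beyond counting noise was not tested. A minimum of 10 counts was reached in all 3 RNA libraries by 15122 genes and in all 3 footprint libraries by 12018. RNA passed the minimum while footprints did not in 3153 genes, and the reverse held in 49, so the minimum fell mostly on genes with few footprints. The lowest of the 6 counts was exactly 10 in 106 genes, just inside the minimum, and 9 in 109 genes just outside it, with median log2 TE of −0.36 and 0.07 in a fit without the minimum. Counts of the Y-linked helicase gene *Ddx3y* were 379, 330 and 3 in footprint libraries and 0, 4663 and 26 in RNA libraries, so the animals of footprint library 1 and RNA library 1 cannot be the same.

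Marker genes of cell types showed what tissue the libraries held, and in bulk tissue fewer cells of a type and less RNA per cell cannot be told apart. All 14 granule neuron markers listed were members, with summed footprint levels of 3745, 5961 and 4761 and RNA levels of 3531, 3685 and 3823. All 13 Purkinje cell markers were members too, at 8496, 5509 and 11768 for footprints and 5249, 5483 and 4679 for RNA, led in footprints by *Pcp2*. Bergmann glia and astrocytes, with 13 of 13 markers and *Aldoc* as the most abundant, summed to 6704, 6781 and 9052 and 3825, 3962 and 3769.6. These cerebellar types varied by 1.35-fold to 2.14-fold between footprint libraries and by less between RNA libraries. Choroid plexus markers varied far more, with 4 of 8 as members and sums of 9754, 6538 and 107 in footprints and 2365, 1549 and 345 in RNA. That range was 91.6-fold for footprints and 6.86-fold for RNA, and nearly all of it was *Ttr*, the transthyretin gene of the choroid plexus epithelium. Whether the pieces held unequal amounts of choroid plexus was not tested, and the TE of its genes is uncertain. Forebrain and hippocampus markers were nearly absent, with 2 of 8 as members, *Neurod2* and *Neurod6*, and with *Emx1*, *Emx2* and *Fezf2* at 0 in at least 1 library. Their sums were 49.97, 72.5 and 68.8 for footprints and 41.8, 44.7 and 43.8 for RNA, and *Neurod2* was the most abundant.

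Other tissues were traced the same way. Oligodendrocyte markers, 11 of 11 as members, summed to 11758, 9889 and 15187 in footprints and 7058, 6070.2 and 7202 in RNA. Microglia had 9 of 10 markers as members and sums of 207, 221 and 201 and 107, 103 and 122. Endothelium and pericytes had 10 of 10, at 515, 447 and 674 and 190.1, 191 and 194, with the glucose transporter gene *Slc2a1* first in footprints. Meningeal fibroblast and bone markers had 8 of 12, at 2173, 2362 and 1983 and 756, 872 and 849, led by *Sparc*, and *Bglap* and *Ibsp* had 0 counts in at least 1 library. Skeletal muscle markers had 3 of 10, at 8.17, 16.9 and 10.6 and 10.97, 7.57 and 5.31, led by *Acta1*, and *Ckm*, *Myh1*, *Myh2*, *Myh4*, *Tnni2* and *Tnnt3* had 0 counts in at least 1 library. Blood markers had 6 of 10, at 1091, 787 and 1781 and 4113, 2295 and 3218, led by the globin gene *Hbb-bs*, with *Camp* and *Ngp* at 0 in at least 1 library. Muscle was thus nearly absent, and blood varied by 1.79-fold between RNA libraries.

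Per length, 1991 genes (16.6%) had high TE and 2296 (19.2%) had low TE, and by counts 1738 (14.5%) were high and 1912 (16.0%) low. Log2 TE per length was −1.98 at percentile 5, −0.76 at percentile 25, 0.70 at percentile 75 and 1.71 at percentile 95, a 12.9-fold span between the outer pair. By counts the same span was 10.3-fold, from −1.77 to 1.59. The median SE of a gene was 0.18, against a standard deviation of 1.16 between genes. The order of genes by footprint level followed that by RNA level, with a rank correlation of 0.81 over 11969 genes, which are not independent of each other. High-TE genes held 44.0% of the summed footprint level and 15.8% of the summed RNA level, and low-TE genes held 6.48% and 37.0%. Mitochondrial genome members, all of them low, held 16.4% of the summed RNA level. The direction of these shares, and the separation of levels in called genes given next, follow from how the classes were called. The 3 footprint levels lay wholly outside the 3 RNA levels in 8432 genes (70.4%), including 1955 of the high (98.2%) and 2288 of the low (99.7%). Median RNA levels were 14.5 for high, 26.0 for low and 18.7 for other genes, and median footprint levels 41.4, 8.09 and 18.4, so the classes differed more in footprints than in RNA. Log2 TE per length had a rank correlation of −0.15 with RNA level, which is also its divisor. In the lowest of 10 equal groups by RNA level, up to 3.54, 34.3% were high and 6.10% low. Such genes enter only with enough footprints, and the effect of that minimum was not tested.

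**Figure D1:**
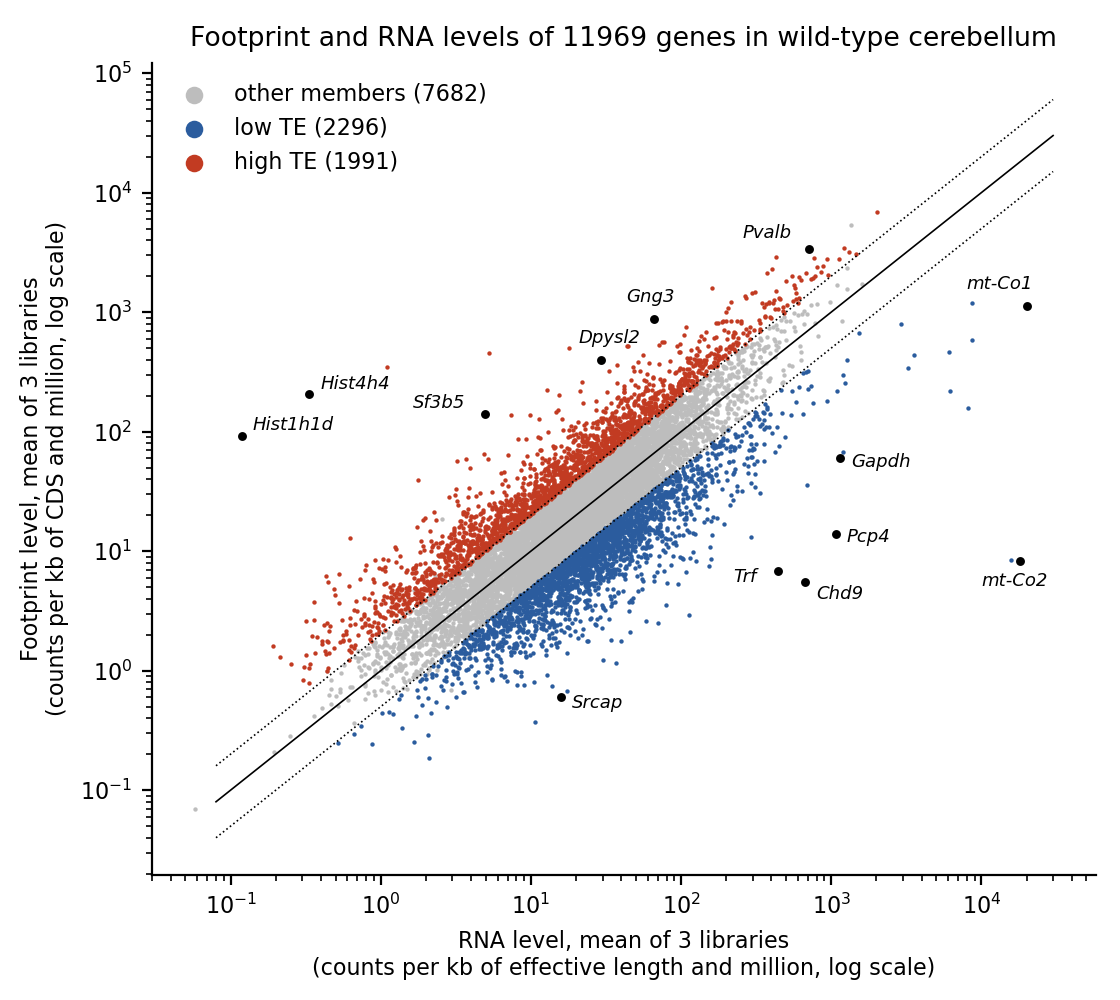
Mean footprint level per kilobase of CDS against mean RNA level per kilobase of effective transcript length for 11969 genes, both on log scales. High-TE (1991) and low-TE (2296) genes are coloured, and genes named in the text are marked.

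The 5 genes with the most RNA, all mitochondrial, were not those with the most footprints. The mitochondrial gene *mt-Co1* had footprint levels of 505, 762 and 2124 and RNA levels of 20727, 19095 and 20516. Among nuclear genes with many footprints, *Pvalb*, the parvalbumin gene of Purkinje cells and interneurons, had footprint levels of 3717, 2186 and 4251 and RNA levels of 724, 714 and 705, and its log2 TE was 2.24, SE 0.29. *Itm2b*, which encodes a membrane protein linked to familial dementia, had footprint levels of 3042, 2893 and 4337 and RNA levels of 1156, 1231 and 1237, with a log2 TE of 1.503, SE 0.19. *Ptgds*, the prostaglandin D synthase gene of meninges and oligodendrocytes, had footprint levels of 2488, 4625 and 2350.1 and RNA levels of 1431, 1479 and 1009, with a log2 TE of 1.27, SE 0.36. The mitochondrial genome held 16.4% of the summed RNA level of the members and 0.705% of the summed footprint level.

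TE per length was lower in genes with a longer CDS. The rank correlation of log2 TE with CDS length was −0.44 over 11969 genes, and between each of the 9 pairs of a footprint and an RNA library it was −0.47 to −0.36. Of 175 genes with a CDS under 300 bases, 65.1% were high and the median log2 TE was 1.39. The median was 0.84 in 1057 genes of 300 to 600 bases, 0.41 in 3177 genes of 600 to 1200, and −0.07 in 4545 genes of 1200 to 2400. It was −0.53 in 2349 genes of 2400 to 4800 bases and −1.08 in 666 genes of 4800 or more, of which 52.0% were low and 1.502% high. High-TE genes had a median CDS of 883 bases, low-TE genes 2212.5 and other genes 1524. CDS length is also the divisor of the footprint level, so this relation is partly set by the scale. By counts, where no length enters, the correlation with CDS length was −0.14, with median log2 TE of 0.55 below 300 bases and −0.19 at 4800 or more. Among 10132 genes with a CDS that was almost all unique in the genome and free of overlap, defined below, the values were −0.52 per length and −0.18 by counts. Among the genes that passed the minimum, short coding sequences thus carried more footprints per RNA on either scale, and the size of the relation depended on the scale. A short CDS reaches 10 footprints only at a higher density than a long one. How much this minimum adds to the relation on either scale was not tested.

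The length outside the CDS had the opposite pattern between scales. RNA counts come from the whole transcript and footprint counts from the CDS alone, so a long UTR adds RNA counts and no footprint counts. By counts, log2 TE had a rank correlation of −0.46 with the length outside the CDS over 11679 genes with a complete annotated transcript, and of −0.45 with 3′ UTR length and −0.16 with 5′ UTR length. Per length these were 0.03, 0.04 and 0.00. The median by counts was 0.69 in the 10% of genes with the least sequence outside the CDS (median 234 bases) and −0.88 in the 10% with the most (median 5049 bases), while per length it was −0.13 and 0.05. The relation to UTR length was therefore weak once both sides were divided by their own length. The scales shared 1065 high genes (53.5% of those per length and 61.3% of those by counts) and 1101 low genes (48.0% and 57.6%), with a rank correlation of 0.68. A call of high per length and low by counts fell on 47 genes, and the 3 of these with the most footprints had a short CDS in a long transcript. *Nrep*, a small neuronal protein gene, had a CDS of 204 bases in an effective transcript of 1848, and log2 TE of 1.34 per length and −1.20 by counts. *Cbln3*, a granule cell cerebellin gene, had 591 bases in 4919, and 1.22 and −1.19.

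*Cplx2*, which encodes a complexin of synaptic vesicle release, had a CDS of 402 bases in an effective transcript of 5738, and log2 TE was 1.16 per length and −2.03 by counts. The opposite, low per length and high by counts, held for *Lrp1b*, *Mtx1*, *Mlip* and *Cdh23*. All 4 had an annotated CDS longer than the effective length of the RNA that was measured. *Cdh23*, a cadherin gene of hair cells, had 10082 CDS bases against an effective length of 2235, with −2.01 per length, 1.43 by counts and 1.42 over protein-coding transcripts alone. *Mlip*, a lamin-binding protein gene, had 2996 against 767, with −1.32 and 1.29, and 0.14 where CDS length was weighted by the RNA of each transcript. *Lrp1b*, a giant receptor gene, had 14039 against 5029, with −1.10, 1.08 and, weighted, −0.01. *Mtx1*, which encodes a mitochondrial outer membrane protein, had 1498 against 523, with −1.13, 1.04 and −0.23. These 7 genes were picked after their values were seen. For genes expressed mainly as short transcripts, the TE per length depended on which CDS was taken. Over all 11969 genes, log2 TE per length had a rank correlation of 0.47 with the ratio of effective length to CDS length. By counts it was −0.25. In the lowest of 10 equal groups by this ratio, up to 0.80, 60.9% were low per length and 10.9% by counts. In the next group these were 32.1% and 9.86%.

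**Figure D2:**
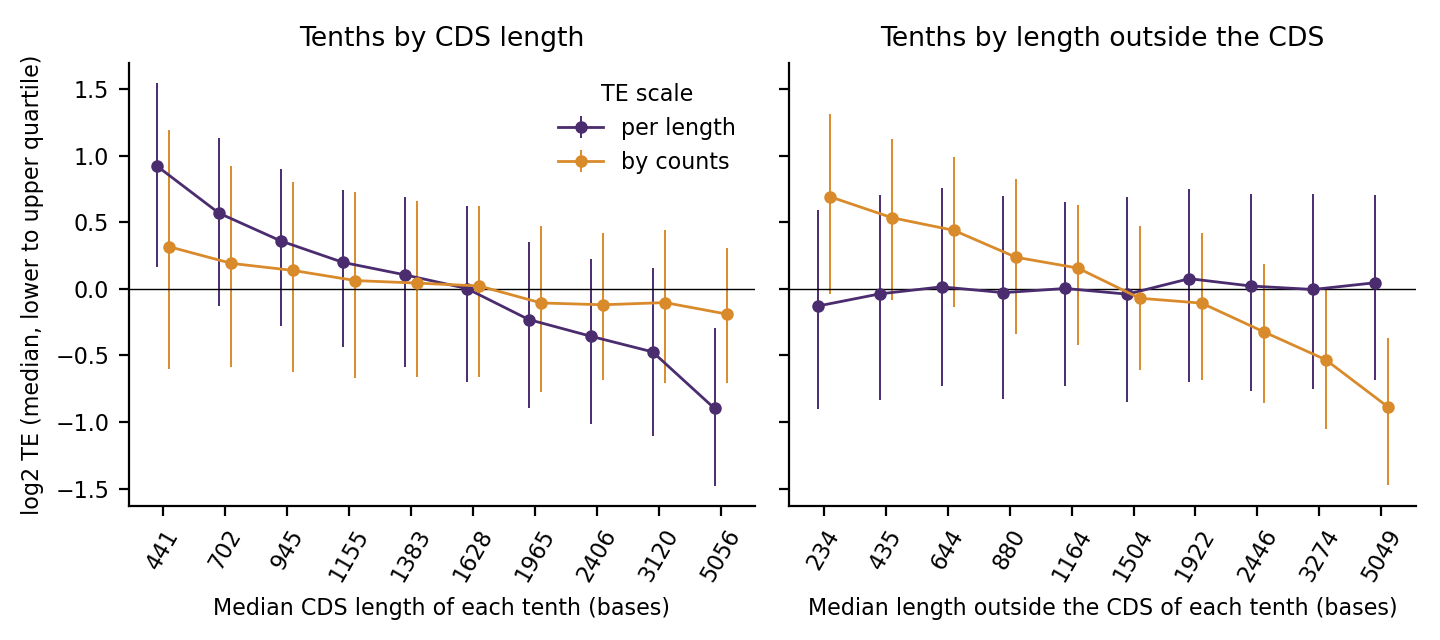
Log2 TE per length and by counts in 10 equal groups of genes by CDS length and by length outside the CDS, as medians and quartiles. Per length, the median ran from 0.92 in the group with the shortest CDS to −0.90 in the group with the longest.

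Genes that share coding sequence with other genes had lower TE. Of the 30-base windows of a CDS, all were unique in GRCm38 in 8335 genes, whose median log2 TE was 0.14, and under 25% in 262 genes with some unique window, whose median was −1.26. The 66 genes without a unique window had a median of −1.17, and 38 of them were low. Coding sequences that shared more than 50% of their bases with another annotated gene had a median of −1.57 in 64 genes. How the deposited counts treated footprints that match several genes was not stated in the labels, so a low TE of such genes is uncertain. A gene was taken as clean when at least 90% of its windows were unique and no base overlapped another gene, which held for 10132 genes (84.7%). Low TE was called in 16.3% of the clean genes and in 35.3% of the others, and high TE in 17.9% and 9.47%. Values with the uniquely mappable length in place of the CDS length are given below where they change the result. Calls within the gene lists below stand against 16.6% high and 19.2% low over all genes per length. These shares are not matched for CDS length or RNA level, and both had a relation to TE.

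Features of the annotated transcript differed between high and low genes. At least 1 ATG lay upstream of the CDS in 41.9% of high, 60.4% of low and 49.2% of other genes. Median log2 TE was 0.15 in 5821 genes without an upstream ATG, −0.08 in 2637 with 1, −0.20 in 2042 with 2 to 3, −0.36 in 912 with 4 to 7 and −0.22 in 267 with 8 or more. A purine at position −3 of the start codon was found in 89.3% of high, 83.9% of low and 86.1% of other genes. AGA codons, those read by the tRNA that is reduced in B6J, made up a median of 0.610% of the codons of high genes, 1.40% of low genes and 0.992% of others. The rank correlation of log2 TE with the AGA share was −0.29 per length and −0.23 by counts, and with GC at position 3 of codons it was 0.34 and 0.24. Over 10 equal groups of genes ordered by AGA share, the median log2 TE ran from 0.70 to −0.55, and over 10 groups ordered by that GC content from −0.87 to 0.66. Whether AGA share, GC content and CDS length vary together between genes, and which of them goes with TE, was not tested.

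Genes of the translation machinery differed between lists, and the ribosomal proteins hold much repeated sequence. Of 77 cytosolic ribosomal protein genes among the members, 1 was high and 42 were low, and the median log2 TE was −1.20 against 0.00 for all genes, but it was 1.86 by uniquely mappable length in the 54 genes with a unique window. By counts the median was −0.24, and only 5.83% of the windows of the median ribosomal protein gene were unique, as the genome holds many processed copies of these genes. The direction of the TE of ribosomal proteins is therefore uncertain. *Rpl3*, with 18.9% unique windows, had footprint levels of 47.8, 37.0 and 48.5 and RNA levels of 300.5, 308 and 319, and its log2 TE was −2.80, SE 0.13 (adjusted p = 8.4e-08, edgeR quasi-likelihood with Benjamini-Hochberg adjustment), or −0.46 by uniquely mappable length. *Rpl4*, with 59.9% unique windows, had footprint levels of 164, 106 and 162 and RNA levels of 269, 281 and 288, and log2 TE was −0.96, SE 0.21, or −0.31 by uniquely mappable length. *Rpl8*, with 86.6% unique windows, had footprint levels of 200.1, 141 and 268 and RNA levels of 259, 282 and 287 and a log2 TE of −0.44, SE 0.27. *Rps6*, whose protein is the target of S6 kinase, had footprint levels of 36.1, 32.8 and 34.6 and RNA levels of 306, 303 and 317, with a log2 TE of −3.16, SE 0.04, the lowest of the list per CDS length, but none of its windows was unique. *Rpl12*, with 27.6% unique windows, had footprint levels of 38.4, 30.3 and 43.0 and RNA levels of 12.3, 7.87 and 9.52, with 1.91, SE 0.24, or 3.83 by uniquely mappable length.

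Ribosomal protein and factor mRNAs are known for a 5′ terminal oligopyrimidine (TOP), through which mTOR controls their translation. A C at the annotated start followed by pyrimidines, at least 5 in a run, was found in 9 of 77 ribosomal protein genes (11.7%) and in 277 of 11679 genes with a complete annotated transcript (2.37%). High, low and other genes had it in 2.43%, 2.38% and 2.35%. The annotated starts showed it in few ribosomal protein genes, so these shares cannot show whether TOP mRNAs differ in TE. The 13 motif genes within the ribosomal protein and other TOP lists had a median log2 TE of −0.93, with 38.5% low, but only 2 were clean. The 264 motif genes outside these lists had a median of 0.11, with 18.6% low. The starts below show the motif in genes of low and high TE per CDS length, from Gencode M21 transcripts on GRCm38, with the pyrimidine run in capitals. *Rps24* (chr14:24490718-24490741, plus strand, log2 TE −1.95) and *Rpl32* (chr6:115808724-115808747, minus strand, −1.68) are ribosomal protein genes, *Pabpc1* (chr15:36608950-36608973, minus strand, −1.61) encodes poly(A)-binding protein, *Rack1* (chr11:48800360-48800383, plus strand, 0.31) a scaffold on the small subunit and *Eif3f* (chr7:108934417-108934431, plus strand, 1.68) an initiation factor subunit.
Rps24: CTCTTTTCCTCCTCTCCagctccg
Rpl32: CTTCCTTCTTCCTCggcgctgcct
Pabpc1: CCCCTTCTCCCCggcggttagtgc
Rack1: CTTTTTCTCCacagggtcgtggtg
Eif3f: CTCTTTCTCggcaag
The run was longest in *Rps24*, a low gene whose value is uncertain at 2.33% unique windows. By uniquely mappable length log2 TE was 3.46 for *Rps24* and 1.16 for *Rpl32*, so the direction of both is uncertain. The motif was also present in *Eif3f*, a high gene.

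Other TOP mRNAs, 16 as members with 1 high and 9 low, had a median log2 TE of −1.42, and 0.25 by uniquely mappable length in 15 genes, so their direction is uncertain too. *Eef1a1*, the main elongation factor gene outside mature neurons, had footprint levels of 201, 214 and 247 and RNA levels of 1090.4, 1081 and 1125, with a log2 TE of −2.32, SE 0.09 but 0.72 by uniquely mappable length, since 10.6% of its windows were unique. *Eef1a2*, its neuronal and muscle form, with 99.9% unique windows, had footprint levels of 1016, 1249 and 1331 and RNA levels of 415, 417 and 403, and log2 TE was 1.54, SE 0.12 (adjusted p = 4.2e-06, edgeR quasi-likelihood with Benjamini-Hochberg adjustment). The neuronal form thus had high TE, and the other form cannot be placed. *Eef2*, the translocation factor gene, had footprint levels of 263, 277 and 310.3 and RNA levels of 390.0, 410.4 and 367 and a log2 TE of −0.46, SE 0.08. *Tpt1*, the translationally controlled tumour protein gene, had footprint levels of 199, 139.7 and 185 and RNA levels of 723, 712 and 835, with a log2 TE of −2.11, SE 0.17, and none of its windows was unique. Over protein-coding transcripts alone log2 TE of *Tpt1* was −0.55. The chaperone subunit gene *Naca* had footprint levels of 15.1, 11.7 and 12.2 and RNA levels of 287, 268 and 322, a log2 TE of −4.49, SE 0.14, and −1.36 with a CDS length weighted by transcript, since a long muscle-type transcript lengthens its annotated CDS. Among 13 elongation and termination factors, 3 were high and 4 low, with a median of −0.46, but 0.21 by uniquely mappable length. *Eef1e1*, a part of the synthetase complex, was the highest of them, at 76.2, 37.7 and 67.7 and 11.98, 10.3 and 13.1, with a log2 TE of 2.36, SE 0.33.

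Initiation factors numbered 40, with 4 high and 12 low and a median log2 TE of −0.33, and 0.09 by uniquely mappable length. *Eif4g2*, which encodes a factor for cap-independent starts and begins at a GTG codon, had footprint levels of 111, 137 and 82.1 and RNA levels of 383, 394 and 372, the lowest of the list with a log2 TE of −1.80, SE 0.22. *Eif4g1*, the scaffold of the cap-binding complex, had footprint levels of 42.1, 23.5 and 28.2 and RNA levels of 86.2, 87.9 and 80.2 and a log2 TE of −1.44, SE 0.25. *Eif3f*, a subunit of eIF3, was the highest of this list, at 93.9, 107 and 134 and 33.2, 36.6 and 34.5, with a log2 TE of 1.68, SE 0.16. Aminoacyl-tRNA synthetases lay at the centre per length, with 1 high and 1 low of 22 and a median of −0.06, but 0.60 by counts. *Cars*, for cysteine, was the lowest at 17.2, 16.0 and 14.7 and 43.2, 32.0 and 46.3, with a log2 TE of −1.34, SE 0.18 per length, 0.14 by counts and −0.60 over protein-coding transcripts alone. The scaffold gene *Aimp2* was the highest at 31.9, 47.3 and 54.0 and 18.7, 16.7 and 14.9, with 1.41, SE 0.25.

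Factors of ribosome rescue and quality control had none high and 8 low of 18 (44.4%, against 19.2% of all genes), a median log2 TE of −0.57 and per-library medians of −0.54, −0.62 and −0.89. By counts 2 were high and 4 low (all genes: 14.5% and 16.0%), with a median of −0.53. The median CDS of the list was 2283.5 bases. Among all genes with a CDS of 2181 to 2730 bases, 25.2% were low per length, with a median of −0.36. Among 13 clean genes of the list 6 were low, so the low calls were not limited to genes with shared sequence. *Gtpbp2* was the lowest, with footprint levels of 15.7, 12.7 and 13.6 and RNA levels of 79.7, 63.7 and 70.9, a log2 TE of −2.35, SE 0.13 per length (adjusted p = 3.4e-07, edgeR quasi-likelihood with Benjamini-Hochberg adjustment) and −1.04 by counts. Over protein-coding transcripts alone it was −1.27, with a CDS of 2211 bases against an effective length of 1400.1. The related gene *Gtpbp1* had footprint levels of 25.6, 40.7 and 29.8 and RNA levels of 30.4, 26.6 and 28.96 and a log2 TE of 0.16, SE 0.20, at the centre. The related GTPases thus had unlike footprints per RNA in normal cerebellum. *Hbs1l*, the GTPase gene of the PELO rescue complex, had footprint levels of 10.1, 9.24 and 6.64 and RNA levels of 40.7, 41.5 and 43.4 and a log2 TE of −2.28, SE 0.19, while *Pelo* itself had 12.04, 9.19 and 17.6 and 6.57, 6.17 and 8.03, with 0.91, SE 0.29. *Rnf10*, a ubiquitin ligase gene for the small subunit, was low at 26.4, 31.8 and 17.4 and 78.0, 77.5 and 83.8, with −1.67, SE 0.26.

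Genes known for regulatory reading frames upstream of the CDS were split. Of 11 members, 2 were high and 6 low, with a median log2 TE of −1.39, or −0.53 in 9 clean genes with 2 high and 4 low, and per-library medians of −1.64, −0.78 and −2.01. *Ppp1r15a*, the stress-induced eIF2α phosphatase subunit, had footprint levels of 1.06, 1.56 and 1.45 and RNA levels of 13.2, 14.1 and 10.6, and log2 TE was −3.21, SE 0.21 (adjusted p = 1.0e-06, edgeR quasi-likelihood with Benjamini-Hochberg adjustment). *Ppp1r15b*, the constitutive subunit, had footprint levels of 24.02, 23.3 and 21.96 and RNA levels of 28.1, 28.7 and 28.02 and −0.29, SE 0.04. *Atf4*, the transcription factor of the integrated stress response, had footprint levels of 40.8, 74.1 and 31.5 and RNA levels of 109, 132 and 141, with a log2 TE of −1.39, SE 0.38. *Ddit3*, which encodes CHOP of the same response, had 5.17, 9.17 and 3.95 for footprints and 34.3, 33.2 and 37.9 for RNA, with −2.55, SE 0.36. *Ibtk*, which encodes an inhibitor of Bruton tyrosine kinase, had footprint levels of 4.46, 6.33 and 3.56 and RNA levels of 19.04, 18.9 and 16.7, with −1.94, SE 0.25, and *Cebpb*, an intronless transcription factor gene, was the highest, at 7.04, 1.93 and 10.5 and 0.529, 0.471 and 0.575, with 3.64, SE 0.74. The value of *Cebpb* rests on 36, 10 and 75 footprint counts and 25, 22 and 28 RNA counts, close to the minimum.

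Upstream start codons of these genes are shown as sites through which their translation is known to be controlled. The sequences are from Gencode M21 transcripts on GRCm38, with the ATG in capitals. *Ppp1r15a* has 3 upstream ATGs, of which number 2 (chr7:45526176-45526199, minus strand) and number 3 (chr7:45526075-45526098, minus strand) are shown, *Atf4* has 3, shown as number 1 (chr15:80255294-80255317, plus strand) and number 2 (chr15:80255573-80255596, plus strand), and *Ibtk* has 4, shown as number 1 (chr9:85749182-85749205, minus strand).
Ppp1r15a ATG 2: gaagattacATGcgatatcccgcg
Ppp1r15a ATG 3: gagggcgacATGaacccgctggct
Atf4 ATG 1: ttttctctcATGgggcctttagga
Atf4 ATG 2: gcggccaccATGgcgtattagagg
Ibtk ATG 1: tcactaaggATGagtccctgcgcg
*Ppp1r15b*, at the centre in TE, has 3 upstream ATGs as well, so their number alone did not separate these genes.

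Polyamine genes, several of which are controlled by upstream reading frames and by frameshifting, had none high and 7 low of 10, with a median log2 TE of −1.43, but 0.03 by uniquely mappable length in 8 genes. *Amd1*, for S-adenosylmethionine decarboxylase, had footprint levels of 8.50, 15.6 and 11.1 and RNA levels of 80.003, 93.4 and 89.6, and log2 TE was −2.91, SE 0.26, but none of its windows was unique. *Odc1*, for ornithine decarboxylase, had footprint levels of 10.7, 8.07 and 11.6 and RNA levels of 35.2, 36.5 and 34.3 and −1.80, SE 0.16, but 0.59 by uniquely mappable length. *Azin1*, the antizyme inhibitor gene, had footprint levels of 52.1, 45.8 and 48.0 and RNA levels of 128, 137 and 128 and −1.43, SE 0.06, with all of its windows unique. The low TE of *Azin1* thus stood on unique sequence, and that of the decarboxylases did not. *Srm*, for spermidine synthase, was the highest, at 45.3, 49.0 and 63.4 and 31.8, 28.7 and 26.4, with 0.86, SE 0.17. *Oaz1*, the antizyme gene, needs a frameshift to make its protein and had footprint levels of 56.5, 73.5 and 52.2 and RNA levels of 297, 290.2 and 296, a log2 TE of −2.28, SE 0.15, but 2.28 by uniquely mappable length. The only upstream ATG of *Amd1* (chr10:40302161-40302184, minus strand), which starts a known short peptide sensitive to polyamines, lies close to the annotated start, and *Odc1* has 2, of which number 1 (chr12:17544912-17544935, plus strand) is shown.
Amd1 ATG 1: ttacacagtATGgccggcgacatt
Odc1 ATG 1: tgcgtctccATGacgacgtgctcg

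Ferritin mRNAs carry an iron-responsive element in the 5′ UTR, to which iron regulatory proteins bind and stop translation. *Fth1* had footprint levels of 420.2, 276 and 502 and RNA levels of 1299, 1229.8 and 1290.4, with a log2 TE of −1.67, SE 0.26. *Ftl1* had footprint levels of 34.0, 22.3 and 55.0 and RNA levels of 298, 300.4 and 275, with −2.95, SE 0.38. Their unique windows made up 78.0% and 13.9%, and by uniquely mappable length log2 TE was −1.42 and −0.18. Among all 7 genes of this kind 0 were high and 2, both ferritins, were low, with a median of 0.11. That median had the other sign with at least 50 counts in all 6 libraries (−0.12) and with a CDS length weighted by transcript (−0.01). Per-library medians were −0.05, −0.46 and −0.04. *Tfrc*, the transferrin receptor gene, whose elements lie in the 3′ UTR, had footprint levels of 78.9, 94.2 and 92.2 and RNA levels of 75.4, 78.2 and 92.2 and a log2 TE of 0.11, SE 0.12. Selenoprotein mRNAs, which read a UGA codon as selenocysteine, had 3 high and 0 low of 20, with a median of 0.40. *Msrb1*, a methionine sulfoxide reductase gene, was their highest at 50.9, 56.6 and 62.2 and 12.7, 14.9 and 17.7, with 1.91, SE 0.16. The peroxidase gene *Gpx4* was their lowest at 123.3, 179 and 145 and 257, 277 and 272, with −0.85, SE 0.16, but 0.21 by uniquely mappable length and 0.05 by counts.

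Mitochondria have their own ribosomes, and the footprints of their mRNAs were scarce in these libraries. All 10 genes of the mitochondrial genome among the members were low, with a median log2 TE of −4.01 per length, −2.54 by counts, and −5.17, −3.88 and −3.21 in the 3 footprint libraries. *mt-Co1*, for cytochrome oxidase subunit 1, had a log2 TE of −4.15, SE 0.62 from the levels given above. *mt-Co2* had footprint levels of 3.57, 8.30 and 13.0 and RNA levels of 18012, 15621 and 20794, and log2 TE was −11.05, SE 0.56 (adjusted p = 1.4e-08, edgeR quasi-likelihood with Benjamini-Hochberg adjustment), the lowest value of all named genes. *mt-Co3* had footprint levels of 3.32, 8.08 and 14.1 and RNA levels of 15574, 15416 and 15929.7, with −10.80, SE 0.61. *mt-Nd4* had footprint levels of 93.2, 145 and 233 and RNA levels of 8185, 8281 and 7987, with −5.69, SE 0.38. *mt-Cytb*, the least low of them, had footprint levels of 639, 1044 and 1875 and RNA levels of 8879.6, 8515 and 8701, with −2.87, SE 0.45. No window of *mt-Co2* or *mt-Co3* was unique in GRCm38, which holds nuclear copies of the mitochondrial genome, and their counts are uncertain. Whether mitochondrial ribosomes were recovered like cytosolic ones was not tested.

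High TE was common among nuclear genes for the same respiratory complexes. Of 80 nuclear oxidative phosphorylation genes, 43 were high (53.8%, against 16.6% of all genes) and 3 low, with a median log2 TE of 1.08 per length, 1.597 by counts and 1.11 in 39 clean genes. In the 3 footprint libraries the median was 1.03, 0.97 and 1.17. The median CDS of these 80 genes was 436.5 bases. Among all genes with a CDS of 300 to 600 bases, 44.3% were high. Their median log2 TE was 0.84 per length and 0.25 by counts. *Ndufa13*, a complex I subunit, had footprint levels of 545, 597 and 531 and RNA levels of 71.5, 79.7 and 78.9, and log2 TE was 2.86, SE 0.07 (adjusted p = 3.1e-08, edgeR quasi-likelihood with Benjamini-Hochberg adjustment). *Atp5b*, the catalytic subunit of ATP synthase, had footprint levels of 1171, 1084 and 1418 and RNA levels of 974, 976 and 974, with 0.33, SE 0.12. *Cox4i1* of cytochrome oxidase had footprint levels of 1217, 1009 and 1299 and RNA levels of 791, 807 and 827, with 0.54, SE 0.11. *Cox7c* was the lowest, at 97.1, 40.9 and 152 and 386, 375 and 455, with −2.05, SE 0.56, but 0.36 by uniquely mappable length, since 18.9% of its windows were unique. Mitochondrial ribosomal proteins, 78 as members, had 24 high and 2 low, with a median of 0.64. *Mrpl23* was their highest, at 26.1, 32.1 and 28.7 and 3.32, 4.96 and 4.74, with 2.74, SE 0.20, or 5.32 by uniquely mappable length at 17.8% unique windows. *Mrps5* was their lowest at 19.7, 24.8 and 18.8 and 57.2, 63.5 and 65.4, with −1.56, SE 0.14, but −0.27 by uniquely mappable length and −0.29 over protein-coding transcripts alone.

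Enzymes of the tricarboxylic acid cycle had 3 high and 0 low of 18, with a median log2 TE of 0.38 per length and 0.91 by counts, and their share of high genes (16.7%) was close to that of all genes (16.6%) per length, but 8 were high by counts (all genes: 14.5%). *Sdhc*, a membrane subunit of succinate dehydrogenase, was the highest at 338, 322 and 468 and 58.6, 59.1 and 66.7, with 2.61, SE 0.18. *Mdh2*, malate dehydrogenase, had footprint levels of 429, 379 and 613 and RNA levels of 256.4, 253 and 275 and 0.86, SE 0.21. Medians of nuclear-encoded mitochondrial proteins were thus above the centre in all 3 lists, and nearest to it in this cycle per length. Glycolytic enzymes lay at the centre, with 1 high and 3 low of 17 and a median of −0.12, but 0.22 by counts and 0.69 by uniquely mappable length. *Aldoc*, the aldolase of astrocytes and some Purkinje cells, was their highest at 2787, 1712 and 3916 and 1077, 1141 and 1151, with 1.32, SE 0.35. *Aldoa* had footprint levels of 956, 809 and 1153 and RNA levels of 691, 701 and 680.0, with 0.49, SE 0.15. *Gapdh* had footprint levels of 70.7, 66.6 and 41.8 and RNA levels of 1155, 1135 and 1132 and a log2 TE of −4.26, SE 0.24, but 0.43 by uniquely mappable length, with 3.55% unique windows among its many pseudogenes. Its low value is therefore uncertain.

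Replication-dependent histone mRNAs end in a stem-loop and mostly lack a poly(A) tail, and RNA here was selected by poly(A). Of 67 such genes 14 reached the minimum counts, of which 12 were high and 0 low, with a median log2 TE of 3.66 per length and 3.35 by counts. *Hist1h1d*, a linker histone gene, had footprint levels of 82.6, 108 and 85.0 and RNA levels of 0.101, 0.126 and 0.128, and log2 TE was 9.58, SE 0.17 (adjusted p = 9.9e-10, edgeR quasi-likelihood with Benjamini-Hochberg adjustment), the highest value of all. *Hist1h1e* had footprint levels of 396, 303 and 352 and RNA levels of 0.899, 0.978 and 1.44, with 8.30, SE 0.24. *Hist4h4* had footprint levels of 189.5, 182 and 242 and RNA levels of 0.410, 0.241 and 0.351, with 9.25, SE 0.26. RNA without a tail is missed by the selection, so a TE of such genes is not a ratio to their whole RNA. *Hist1h4h* had footprint levels of 378, 498 and 477 and RNA levels of 7.25, 3.07 and 5.57, with 6.40, SE 0.39. *Hist3h2a* had footprint levels of 492, 442 and 570.4 and RNA levels of 18.99, 14.9 and 20.3, with 4.80, SE 0.17. *Hist1h2bc*, which is also made with a poly(A) tail, was the lowest of the list, at 45.5, 34.9 and 19.7 and 45.6, 40.9 and 41.1, with −0.37, SE 0.36. None of its windows was unique, so its value is uncertain, and whether the tail accounts for it was not tested. The linker histone gene *H1fx*, a replication-independent form, also had high TE, at 60.4, 58.9 and 56.9 and 3.48, 4.09 and 3.498, with 3.99, SE 0.08.

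Secretory and housekeeping groups lay mostly above the centre, where all genes had 16.6% high and 19.2% low. ER chaperones had 5 high (31.2%) and 0 low of 16, a median log2 TE of 0.82, 1.05 by counts, and per-library medians of 0.85, 0.82 and 0.83. *P4hb*, protein disulfide isomerase, was the highest at 154, 166 and 148 and 57.4, 57.5 and 58.4, with 1.43, SE 0.05. *Hspa5*, the BiP gene, had footprint levels of 318, 314 and 317 and RNA levels of 215, 206 and 285, with 0.43, SE 0.15. Cytosolic chaperones were at 0.01 in the median, with 1 high and 3 low of 15, but 0.74 by counts, 0.20 by uniquely mappable length and −0.14 with a CDS length weighted by transcript. *Hsp90ab1* had footprint levels of 463, 437 and 666 and RNA levels of 612, 644 and 617 and a log2 TE of −0.26, SE 0.19. *Hspa8* had footprint levels of 287, 214 and 268 and RNA levels of 1118, 1225 and 1366 and −2.27, SE 0.15, or 2.46 by uniquely mappable length. Cholesterol enzymes had 8 high and 1 low of 18, with a median of 0.93, 0.70 by counts. *Dhcr7*, for the last step of synthesis, was the highest at 61.7, 84.4 and 86.71 and 22.9, 20.8 and 18.8, with 1.90, SE 0.18. The lowest, *Idi1*, had 12.7, 7.87 and 12.3 and 57.7, 63.5 and 66.8, with −2.51, SE 0.23, or −0.26 by uniquely mappable length. The order of the sterol list and the cytosolic chaperones thus turned with the scale.

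V-ATPase subunits, which acidify lysosomes and synaptic vesicles, had 6 high and 1 low of 18, with a median log2 TE of 0.66. *Atp6v1g2*, the neuronal G subunit, was the highest at 682, 612 and 711 and 232, 229 and 228, with 1.54, SE 0.06. *Atp6v1g1*, the ubiquitous G subunit, was the lowest at 29.9, 33.9 and 62.9 and 109.5, 102 and 105, with −1.30, SE 0.33, but 3.15 by uniquely mappable length. Proteasome subunits had 3 high and 0 low of 33, with a median of 0.31 per length, but 16 high by counts (all genes: 14.5%), with 0.87. *Psma2* of the core was their highest at 219, 201 and 198 and 56.1, 49.5 and 58.8, with 1.91, SE 0.09. *Psmd2* of the base was their lowest at 55.6, 64.6 and 57.6 and 95.04, 98.2 and 89.6, with −0.67, SE 0.08, but 0.16 by uniquely mappable length. Autophagy genes had 5 high and 7 low of 32, with a median of 0.15 per length but −0.06 by counts. *Map1lc3a* was their highest at 535, 486 and 599 and 99.3, 97.4 and 100.5, with 2.45, SE 0.09, while the paralogue *Map1lc3b* was low at 27.1, 15.9 and 41.5 and 117, 108 and 108, with −1.96, SE 0.40 and 69.4% unique windows.

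The mTOR pathway had 5 high and 4 low of 26, with a median log2 TE of 0.23 per length but −0.01 by counts. *Lamtor4*, a short subunit of the lysosomal anchor, was the highest at 189, 208 and 187 and 32.3, 34.7 and 46.6, with 2.36, SE 0.17, and *Mtor* itself had footprint levels of 24.7, 23.2 and 25.03 and RNA levels of 19.8, 20.7 and 17.0, with 0.35, SE 0.09. *Rictor*, of the mTORC2 complex, had footprint levels of 23.5, 17.9 and 21.8 and RNA levels of 23.2, 23.3 and 19.8, with −0.07, SE 0.14. The eIF2α kinases and phosphatases had 1 high and 2 low of 10, with a median of −0.28 per length and −0.21 by counts, but 0.13 over protein-coding transcripts alone. *Impact*, which restrains the kinase GCN2, was the highest at 174, 143 and 182 and 75.8, 80.3 and 83.5, with 1.06, SE 0.12.

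Tubulins and actins were split, with 6 high and 5 low of 16, a median log2 TE of −0.33 per length and 0.94 by uniquely mappable length. *Actb* had footprint levels of 1851, 2059 and 2437 and RNA levels of 374, 391 and 357, and log2 TE was 2.5001, SE 0.12 with 56.1% unique windows. *Actg1*, the other cytoplasmic actin gene, had footprint levels of 130.4, 132 and 167 and RNA levels of 479.5, 474 and 449, with −1.71, SE 0.12 and 14.5%, but 0.84 by uniquely mappable length. *Tuba1a*, the main neuronal alpha tubulin gene, had footprint levels of 29.2, 30.9 and 48.2 and RNA levels of 647, 665 and 756, with −4.25, SE 0.24 and 6.73%, or −0.69 by uniquely mappable length, whereas its near copy *Tuba1c* had footprint levels of 50.1, 56.8 and 62.2 and RNA levels of 4.60, 3.15 and 1.84, with 4.15, SE 0.40 and 4.85%. Opposite values of near-identical copies cannot be told apart from footprints assigned to the wrong copy, and both are uncertain. *Tubb4a*, the beta tubulin of oligodendrocytes, with 96.2% unique windows, had footprint levels of 852, 1173 and 1255 and RNA levels of 471, 498 and 464 and 1.20, SE 0.17.

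Splicing factor and zinc finger genes had low medians, and all genes had 19.2% low. SR splicing factors, many of which carry a poison exon that routes RNA to decay, had none high and 8 low of 13, with a median log2 TE of −1.09 per length, −1.41 by counts, −0.60 by uniquely mappable length and −0.37 over protein-coding transcripts alone. Per length all 13 were below 0. *Srsf5* was the lowest, with footprint levels of 46.5, 43.3 and 57.2 and RNA levels of 214, 205 and 266, and log2 TE was −2.22, SE 0.17 (adjusted p = 5.6e-07, edgeR quasi-likelihood with Benjamini-Hochberg adjustment), but −0.49 by uniquely mappable length. *Srsf11* had footprint levels of 44.0, 42.9 and 42.6 and RNA levels of 148, 136 and 174, with −1.82, SE 0.10. *Srsf1* had footprint levels of 71.1, 68.2 and 78.3 and RNA levels of 189, 174 and 236, with −1.46, SE 0.14. *Srsf3* had footprint levels of 51.2, 64.2 and 72.8 and RNA levels of 128, 128 and 146, with −1.09, SE 0.16, but 5.18 by uniquely mappable length, and its value is uncertain. *Srsf2* was nearest the centre, at 76.3, 82.6 and 128 and 103, 96.2 and 124, with −0.16, SE 0.26. Over protein-coding transcripts alone log2 TE was −1.10 for *Srsf5*, −0.14 for *Srsf11*, −0.61 for *Srsf1* and 0.36 for *Srsf2*. Values of these genes thus depended on which transcripts were taken, and the cause was not tested. How much of the RNA was nuclear was not tested either. Zinc finger protein genes had 7 high and 153 low (54.6%) of 280, with a median of −1.08 per length, −0.91 by counts and −0.91 in 205 clean genes. Low TE was therefore common in this family whether or not sequence was shared.

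*Zfp950*, a zinc finger gene, was the lowest of its family at 1.67, 2.42 and 1.32 and 32.5, 30.5 and 39.8, with a log2 TE of −4.27, SE 0.28. *Zfp593*, whose product acts in ribosome assembly, was the highest at 13.8, 9.37 and 25.4 and 4.28, 4.06 and 3.22, with 2.09, SE 0.44. The more abundant *Zfp106* had footprint levels of 10.5, 12.6 and 6.67 and RNA levels of 44.5, 46.6 and 40.4, with −2.15, SE 0.28. *Zfp207*, a mitotic and splicing factor gene, had footprint levels of 104, 92.5 and 81.1 and RNA levels of 92.0, 89.2 and 97.3, with −0.01, SE 0.11. Immediate early genes, also transcription factors for the most part, lay on the other side per length, with 8 high and 0 low of 17 and a median of 0.88, but 0.25 by counts, with 4 high and 2 low. *Jund*, an intronless AP-1 gene, was the highest at 119.9, 174 and 152 and 34.6, 40.9 and 34.9, with 2.01, SE 0.18. *Egr1* had footprint levels of 35.4, 26.9 and 50.2 and RNA levels of 10.8, 14.7 and 17.5, with 1.39, SE 0.33. *Fos* had footprint levels of 45.6, 9.46 and 156 and RNA levels of 37.1, 75.04 and 53.6, with 0.37, SE 1.21. Per-library medians of the immediate early genes were 0.52, 0.52 and 1.502, so footprint library 3 stood above the others. *Nr4a3*, a nuclear receptor gene, was the lowest at 8.20, 4.26 and 22.2 and 16.0, 24.4 and 11.04, with −0.54, SE 0.77.

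Synaptic genes had a larger share of high TE per length than all genes (16.6%), and a similar share by counts (14.5%). Vesicle release genes had 12 high and 3 low of 29, 5 high by counts, with a median log2 TE of 0.86 per length, 0.13 by counts and 0.77, 0.84 and 1.04 in the 3 footprint libraries. *Slc17a6*, the vesicular glutamate transporter 2 gene, was the highest, with footprint levels of 90.4, 58.5 and 61.2 and RNA levels of 3.83, 6.07 and 24.8, and its log2 TE of 2.59, SE 0.84 is uncertain because RNA varied widely between libraries. *Rab3a*, a vesicle GTPase gene, had footprint levels of 1414, 1332 and 1679.8 and RNA levels of 312, 311 and 305, and log2 TE was 2.25, SE 0.10 (adjusted p = 2.4e-07, edgeR quasi-likelihood with Benjamini-Hochberg adjustment). *Syp*, the synaptophysin gene, had footprint levels of 1091, 1256 and 1237 and RNA levels of 371, 382 and 397, with 1.64, SE 0.07. *Snap25*, of the fusion complex, had footprint levels of 2909, 3147 and 3150.3 and RNA levels of 1430.4, 1557 and 1418, with 1.06, SE 0.06. By counts log2 TE was 0.92 for *Syp* and 0.55 for *Snap25*, and neither was called. Over protein-coding transcripts alone *Snap25* stood at 0.77. *Rims1* of the active zone had footprint levels of 24.4, 30.9 and 16.9 and RNA levels of 93.2, 92.6 and 102, with −1.997, SE 0.26. *Rims2*, the lowest, had footprint levels of 18.0, 14.98 and 14.0 and RNA levels of 81.2, 84.8 and 77.6, with −2.38, SE 0.11 and −0.88 by counts.

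Genes of inhibitory transmission had 10 high and 0 low of 25, 3 high by counts, with a median log2 TE of 0.87, 0.50 by counts and per-library medians of 0.93, 0.72 and 0.88. *Slc32a1*, the vesicular GABA transporter gene, was the highest, with footprint levels of 216, 187 and 314 and RNA levels of 44.3, 47.5 and 33.9, and log2 TE was 2.51, SE 0.27. *Gabra6*, the receptor subunit of granule cells, had footprint levels of 378, 599 and 409 and RNA levels of 611, 592 and 676, with −0.44, SE 0.21. *Gabra4* was the lowest, at 9.42, 13.1 and 10.3 and 17.4, 16.9 and 17.4, with −0.65, SE 0.14. Glutamate receptors and their auxiliary subunits had 7 high and 0 low of 31, 5 high by counts, with a median of 0.24 per length but −0.05 by counts. *Grm2*, a metabotropic receptor of Golgi cells, was the highest at 21.3, 23.5 and 26.7 and 6.96, 6.00 and 4.45, with 2.04, SE 0.21. *Grin1*, the common NMDA subunit, had footprint levels of 229.5, 228 and 232 and RNA levels of 87.4, 85.5 and 80.9, with 1.44, SE 0.03. *Gria4*, an AMPA subunit, had footprint levels of 141, 168 and 152 and RNA levels of 225, 230.1 and 194, with −0.49, SE 0.11. The median of the inhibitory genes was above that of the glutamate receptors on both scales. By counts, however, 3 of 25 inhibitory genes were high against 5 of 31 of the glutamate receptor list. The difference between the 2 lists was not tested.

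Potassium channels had 17 high (26.98%, against 16.6% of all genes) and 4 low of 63, with a median log2 TE of 0.16 per length but −0.21 by counts, with 9 high and 11 low. *Kcnh5*, of the EAG family, was the highest, at 4.51, 2.95 and 3.74 and 0.112, 0.308 and 0.661, with 3.36, SE 0.76 from very little RNA. *Kcnh3* was the lowest at 0.846, 1.25 and 1.14 and 3.11, 4.04 and 2.73, with −1.60, SE 0.24. *Kcnc1*, a channel gene of granule cells, had footprint levels of 97.4, 189 and 118 and RNA levels of 125, 138 and 115, with 0.10, SE 0.29. *Kcna2* had footprint levels of 67.2, 67.7 and 62.998 and RNA levels of 66.1, 64.6 and 55.1 and a log2 TE of 0.09, SE 0.09 per length but −2.15 by counts, with a CDS of 1497 bases in an effective transcript of 11099. Voltage-gated sodium and calcium channels, with long coding sequences, had 4 high and 6 low of 24 and a median of −0.24. *Scn4b*, a short accessory subunit, was the highest at 79.0, 70.3 and 106 and 20.1, 20.7 and 17.4, with 2.14, SE 0.19 per length but −0.26 by counts. *Cacna1d* was the lowest at 8.21, 8.24 and 3.10 and 28.1, 28.97 and 26.9, with −2.11, SE 0.47, but −0.54 over protein-coding transcripts alone. *Cacna1a*, the P/Q-type channel gene of Purkinje cells, had footprint levels of 78.9, 72.9 and 56.6 and RNA levels of 113, 119.9 and 117, with −0.75, SE 0.15 per length but 0.35 by counts.

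Clustered protocadherins, adhesion genes that share their last exons, had 9 high and 0 low of 53, with a median log2 TE of 0.72. Their median RNA levels were only 3.43, 3.61 and 3.43. In the lowest of 10 equal groups by RNA level, up to 3.54, all genes had a median of 0.61, with 34.3% high and 6.10% low. Only 2 of the protocadherins were clean, and footprints in a shared exon cannot be told apart between them. *Pcdhgc5* was the highest at 9.69, 9.92 and 16.4 and 3.72, 3.82 and 2.501, with 1.85, SE 0.32. *Pcdha3* was the lowest at 1.97, 0.788 and 2.201 and 3.25, 2.23 and 2.17, with −0.61, SE 0.51. Matrix proteoglycans and tenascins of the brain had 5 high and 0 low of 13, with a median of 0.51, or 0.27 by uniquely mappable length. *Acan*, the aggrecan of perineuronal nets, was the highest at 2.19, 1.10 and 1.70 and 0.207, 0.222 and 0.793, with 2.03, SE 0.69. *Bcan*, brevican, had footprint levels of 90.8, 115 and 92.2 and RNA levels of 89.6, 76.1 and 97.7, with 0.18, SE 0.15. *Vcan*, versican, was the lowest at 5.40, 6.96 and 6.05 and 9.18, 10.2 and 8.45, with −0.60, SE 0.13. Collagens had 3 high and 2 low of 33, with a median of 0.25 and per-library medians of 0.00, 0.49 and 0.02, but 9 high and 1 low by counts, with 0.62. *Col1a1* had footprint levels of 19.6, 61.6 and 94.8 and RNA levels of 5.17, 6.13 and 4.33, with 3.496, SE 0.69. *Col1a2* had footprint levels of 29.7, 57.7 and 64.8 and RNA levels of 14.2, 16.9 and 10.8, with 1.86, SE 0.40, while *Col27a1* was the lowest at 1.35, 1.42 and 0.263 and 3.75, 2.62 and 4.81, with −1.93, SE 0.84, but −0.92 over protein-coding transcripts alone.

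Markers of cell types follow, where all genes had 16.6% high per length, and differences between cell types were not tested. Oligodendrocyte markers had 7 high and 2 low of 11, with a median log2 TE of 1.27, 0.79 by counts, and per-library medians of 1.27, 0.95 and 1.68. *Cldn11*, the myelin claudin, was the highest, with footprint levels of 1659.9, 1269.8 and 1821 and RNA levels of 168, 148 and 167, and log2 TE was 3.30, SE 0.17 (adjusted p = 8.2e-08, edgeR quasi-likelihood with Benjamini-Hochberg adjustment). *Mbp*, whose annotated CDS includes the longer golli forms, was low at 821, 755 and 822 and 3030.5, 2545 and 3232, with −1.88, SE 0.11, and −1.07 with a CDS length weighted by transcript. *Mobp* was the other low gene of the list, at 455, 198 and 304 and 728, 636 and 739, with −1.14, SE 0.35, but 1.18 over protein-coding transcripts alone. Microglia had 6 high and 0 low of 9, with a median of 1.17. *Cx3cr1*, their chemokine receptor, was the highest at 13.3, 18.4 and 16.1 and 4.999, 5.06 and 5.45, with 1.62, SE 0.14. *P2ry12* was the lowest at 12.7, 14.8 and 10.398 and 9.30, 9.996 and 14.6, with 0.15, SE 0.25.

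Vessel markers had 5 high and 0 low of 10, with a median log2 TE of 1.17. *Slc2a1*, the glucose transporter of the blood-brain barrier, was the highest at 155, 114 and 205 and 32.3, 34.0 and 28.998, with 2.32, SE 0.25. *Tek* was the lowest at 5.31, 4.83 and 5.47 and 5.62, 5.06 and 6.14, with −0.11, SE 0.10. Bergmann glia and astrocytes had 6 high and 0 low of 13, with a median of 0.81, but 0.18 by counts, with 1 high. *Gdf10*, a Bergmann growth factor gene, was the highest at 284, 210.2 and 309 and 57.2, 60.4 and 52.5, with 2.24, SE 0.18. The glutamate transporter gene *Slc1a3* had footprint levels of 974, 943 and 1157 and RNA levels of 657, 712 and 597, with 0.64, SE 0.12. Meningeal fibroblasts and bone had 5 high and 0 low of 8, with a median of 1.23. *Sparc*, a matrix protein gene also made by glia, had footprint levels of 1975, 2061 and 1622 and RNA levels of 656, 783 and 760.1, with 1.36, SE 0.13. Blood markers had 1 high and 3 low of 6, 1 low by counts, and a median of −1.04, but 2.01 by uniquely mappable length, and the globin genes are near copies. *Slc4a1*, the anion exchanger of red cells, was the high one at 1.496, 1.72 and 2.05 and 0.434, 0.410 and 0.478, with 2.00, SE 0.15.

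Purkinje cell markers had 7 high and 2 low of 13, with a median log2 TE of 1.01, 0.39 by counts, and per-library medians of 1.00, 0.30 and 1.595. *Calb1*, the calbindin gene, was the highest, with footprint levels of 2121, 1006 and 2890.3 and RNA levels of 535, 582 and 522, and log2 TE was 1.88, SE 0.45. *Car8*, whose loss causes ataxia, had footprint levels of 1899.5, 1425 and 2498 and RNA levels of 756, 783 and 739, with 1.35, SE 0.24. *Itpr1*, the calcium release channel gene, had footprint levels of 299.9, 218 and 416 and RNA levels of 671, 801 and 462, with −1.05, SE 0.36. *Pcp4*, a calmodulin regulator gene, was the lowest at 17.9, 7.06 and 17.0 and 1050.2, 1050.1 and 1107, with −6.24, SE 0.44, but 45.6% of its CDS overlaps *Igsf5* and the value is uncertain. Granule neuron markers had 2 high and 3 low of 14, with a median of 0.34 per length but −0.19 by counts. *Zic1*, their transcription factor gene, had footprint levels of 362, 548 and 392 and RNA levels of 284, 288 and 305, with 0.57, SE 0.19. *Fat2*, a giant cadherin gene of the parallel fibre layer, had footprint levels of 100.6, 109.8 and 87.2 and RNA levels of 78.7, 82.4 and 63.9, with 0.40, SE 0.15. *Etv1*, a transcription factor gene, was the lowest at 57.0, 93.6 and 42.9 and 164, 183 and 178, with −1.44, SE 0.33, but 1.08 by uniquely mappable length. The choroid plexus gene *Ttr* had footprint levels of 9576, 6388 and 85.8 and RNA levels of 2269.7, 1482 and 315 and a log2 TE of 1.98, SE 2.34, and it was not called.

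**Figure D3:**
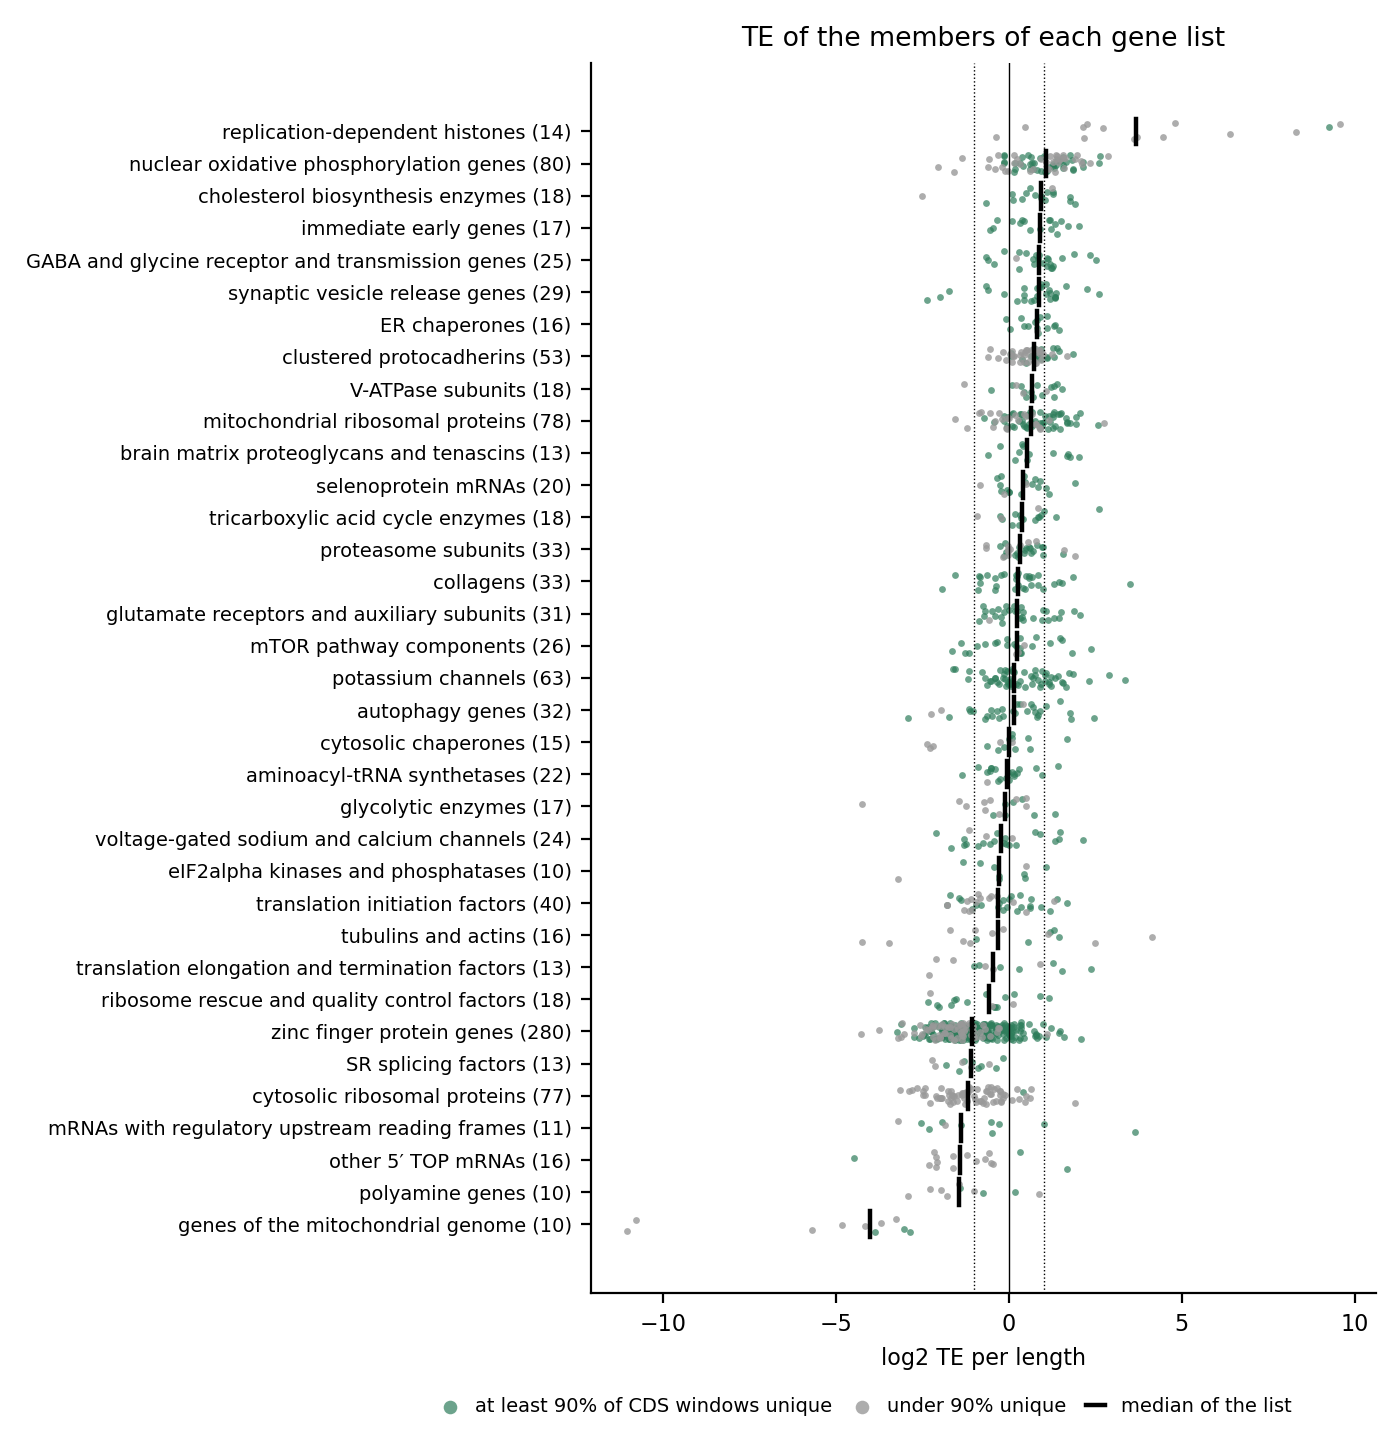
Log2 TE per length of the members of each gene list (points) and its median (bars), with members of at least 90% unique CDS windows in green. Nuclear oxidative phosphorylation genes lay at 1.08, zinc finger genes at −1.08 and mitochondrial genome genes at −4.01.

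The highest and lowest genes were picked among 3186 with a call, an average log2 CPM (counts scaled to library size) of at least 4 and no overlap of footprint and RNA levels, 1396 of them high and 1790 low. Of the 12 highest, 5 were the histone genes *Hist1h1d*, *Hist4h4*, *Hist1h1e*, *Hist1h4h* and *Hist3h2a* given above, with *Tuba1c* and *H1fx* also described. *Sf3b5*, an intronless gene for a small splicing factor subunit, had footprint levels of 106, 127 and 189 and RNA levels of 4.61, 5.19 and 5.09, and log2 TE was 4.83, SE 0.25 (adjusted p = 6.2e-08, edgeR quasi-likelihood with Benjamini-Hochberg adjustment). *Scand1*, a SCAN domain protein gene, had footprint levels of 119, 139 and 158 and RNA levels of 7.12, 7.07 and 7.90, with 4.23, SE 0.13. *Nrgn*, the neurogranin gene of a postsynaptic calmodulin-binding protein, had footprint levels of 151, 154 and 366 and RNA levels of 1.20, 7.99 and 28.9, with 4.14, SE 1.40. *Sec61g*, a subunit of the ER translocon, had footprint levels of 154, 133 and 123.2 and RNA levels of 10.3, 8.11 and 11.2, with 3.79, SE 0.17. *Dpysl2*, for the axon growth protein CRMP2, had footprint levels of 342, 352 and 494 and RNA levels of 30.1, 29.6 and 27.7, with 3.77, SE 0.17. RNA of *Nrgn* varied widely between libraries, and its value is uncertain. Apart from *Dpysl2*, with a CDS of 1716 bases, these genes were short. CDS lengths were 258 in *Sf3b5*, 426 in *Scand1*, 234 in *Nrgn* and 300 in *Sec61g*.

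Of the 12 lowest, 4 were the mitochondrial genes *mt-Co2*, *mt-Co3*, *mt-Nd4* and *mt-Nd3*, the last of these at 165, 464 and 23.8 and 5966, 5979 and 6579, with a log2 TE of −4.84, SE 1.26, but 1.58 by uniquely mappable length. *Chd9*, a chromatin remodeller gene, had footprint levels of 7.08, 5.99 and 3.51 and RNA levels of 614, 694 and 692, and log2 TE was −6.92, SE 0.31, but its effective length of 806 was far below its CDS of 8685 bases, and over protein-coding transcripts alone it was −1.99. *Trf*, the transferrin gene of oligodendrocytes, had footprint levels of 4.01, 3.22 and 13.3 and RNA levels of 486, 414 and 418, with −5.96, SE 0.64, and 94.9% of its CDS overlaps *Gm20425*. *Gtf3c2* of RNA polymerase III initiation had footprint levels of 0.976, 1.38 and 1.09 and RNA levels of 39.6, 34.7 and 35.6, with −4.997, SE 0.16, and 87.9% overlaps *Gm29609*. *Srcap*, a remodeller gene, had footprint levels of 0.650, 0.640 and 0.528 and RNA levels of 16.3, 18.0 and 12.9, with −4.71, SE 0.17, and 93.9% overlaps *Gm42715*. *Lats2*, a Hippo pathway kinase gene, had footprint levels of 0.741, 0.535 and 0.742 and RNA levels of 17.9, 18.9 and 15.8, with −4.69, SE 0.17, and 72.2% overlaps *Gm49361*. *Hnrnpf*, an RNA-binding protein gene with 2.22% unique windows, had footprint levels of 3.49, 2.75 and 2.498 and RNA levels of 116, 123.2 and 102, with −5.30, SE 0.16, but −0.21 by uniquely mappable length. *Ermard*, linked to neuronal migration, had footprint levels of 2.16, 3.00 and 2.35 and RNA levels of 72.0, 68.01 and 70.1, with −4.80, SE 0.14, an effective length of 547 and a CDS of 2169 bases. Most of the lowest values thus fell on genes whose footprints or RNA may have been assigned to another gene or transcript, and they are uncertain.

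The clean genes at either end, 1259 high and 1279 low under the same conditions, were added after the values were seen. *Gng3*, a G protein subunit of neurons, had footprint levels of 857, 865 and 911 and RNA levels of 63.5, 66.3 and 69.3, and log2 TE was 3.73, SE 0.05. *Sod3*, extracellular superoxide dismutase, had footprint levels of 39.0, 67.99 and 43.0 and RNA levels of 4.55, 4.22 and 3.07, with 3.66, SE 0.30. *Pcsk1n*, an inhibitor of prohormone convertase, had footprint levels of 457, 499 and 605 and RNA levels of 41.4, 47.4 and 44.8, with 3.55, SE 0.13. *Sst*, somatostatin, had footprint levels of 175, 76.8 and 200.2 and RNA levels of 4.34, 6.95 and 33.9, with 3.32, SE 1.00 and widely varying RNA. *Tpbg*, a surface glycoprotein gene, had footprint levels of 27.7, 32.0 and 38.6 and RNA levels of 3.34, 1.80 and 4.36, with 3.38, SE 0.40. *Gm2a*, a lysosomal lipid-binding protein gene, had footprint levels of 171, 261 and 219 and RNA levels of 20.9, 22.1 and 21.1, with 3.34, SE 0.18. *Eml5*, a microtubule-binding protein gene, was low at 12.6, 9.55 and 3.43 and 166, 139 and 169, with −4.22, SE 0.58. *Atrx*, a chromatin remodeller gene of intellectual disability, had footprint levels of 11.5, 7.41 and 7.48 and RNA levels of 113, 115 and 117, with −3.71, SE 0.21. *Clk4*, a kinase of SR proteins, had footprint levels of 9.18, 6.76 and 8.69 and RNA levels of 125, 102 and 149, with −3.93, SE 0.21. *Nktr*, a cyclophilin with an SR domain, had footprint levels of 7.45, 6.11 and 2.54 and RNA levels of 89.6, 70.9 and 82.6, with −3.94, SE 0.49. *Lars2*, the mitochondrial leucyl-tRNA synthetase gene, had footprint levels of 5.66, 6.61 and 7.67 and RNA levels of 112, 162 and 48.0, with −4.01, SE 0.53. *Mcm9*, a DNA repair helicase gene, had 1.25, 1.24 and 1.21 and 35.2, 29.01 and 25.8, with −4.60, SE 0.13. *Helq*, another helicase gene, had 1.92, 3.37 and 1.52 and 25.2, 27.2 and 37.1, with −3.73, SE 0.38. Over protein-coding transcripts alone *Lars2* stood at −1.17, *Helq* at −1.60, *Eml5* at −2.77 and *Clk4* at −2.73, closer to the centre. *Naca*, given above, was also among the lowest.

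Across 47 lists, footprints per RNA were above the centre for nuclear-encoded mitochondrial proteins, inhibitory synapse and vesicle genes, sterol enzymes, ER chaperones and markers of glia and vessels. By counts, high calls fell to 5 of 29 vesicle genes, 3 of 25 inhibitory genes and 1 of 13 Bergmann glia and astrocyte markers. The medians of these were 0.13, 0.50 and 0.18. Footprints per RNA were below the centre for the mitochondrial genome, zinc finger genes, SR splicing factors and ribosome rescue factors, the last less often called low by counts. Genes known for regulatory upstream reading frames were also below the centre, with fewer low calls among clean genes. Ribosomal proteins, other TOP mRNAs, polyamine genes, globins and tubulins had directions that turned with the length that was used, and were left without a direction. All of these lists stand against the centre of all genes and not against genes of like CDS length. Of the single lengths compared, CDS length had the strongest relation to TE per length, and the length outside the CDS the strongest by counts. Per length, the ratio of effective length to CDS length had a stronger relation still, at 0.47 against −0.44.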

How the data were processed

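Footprints were made by the authors with RNase I from lysates holding cycloheximide, and RNA was selected by poly(A). Footprint values are counts of reads in coding sequence, made by the authors by clipping adaptors, trimming the first base, removing ribosomal RNA with Bowtie2 2.2.3, aligning to mm10 with HISAT2 2.1.0 and counting with featureCounts. RNA values are estimated counts per transcript, deposited by the authors from kallisto 0.42.4 with bias correction on Gencode M20. The deposited TPM of the same files, in transcripts scaled to the library, served only to weight effective and CDS lengths over the transcripts of a gene. Estimated counts were summed by the gene identifier and rounded. Of 22523 genes with a footprint count, 21759 matched a CDS in Gencode M21 by versioned identifier, 729 without the version and 35 not at all, and all 11969 members matched. CDS length was the union of the coding exons. The 3 footprint libraries of wild type were compared with the 3 RNA libraries in edgeR 4.0.16 (R 4.3.3) with the robust quasi-likelihood fit, lengths as offsets, TMM scaling and Benjamini-Hochberg adjustment, after a minimum of 10 counts in all 6 libraries. Depth ran from 4428395 to 6523974 counts in footprint libraries and from 49090501 to 52114400 in RNA libraries. The median SE was 0.18 per gene. Unique windows were counted over both strands of GRCm38. The scripts were tested on simulated data. The mutant libraries entered only an alternative fit of all 18 libraries, beside DESeq2 1.42.0, limma 3.58.1, other lengths, filters and scalings, and fits without each library. Members and gene lists were chosen with earlier results of these data known. Named genes are the 12 highest and 12 lowest called genes with an average log2 CPM of at least 4 and no overlap between assays. Named as well are up to 4 most abundant members of each list with its highest and lowest, the 5 genes with the most footprints and the 5 with the most RNA, *Gtpbp1* and *Gtpbp2*. Some genes that meet this rule are left out of the text. *Hbs1l*, *Pelo*, *Ddit3*, *Odc1*, *Map1lc3b*, *Actg1*, *Egr1* and *Rims1*, and the genes whose starts are printed, fall outside that rule and were chosen after their values were seen.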

Additional observations from a re-analysis of the deposited data

How the results depend on the processing

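With no fold threshold and the adjusted p alone (edgeR quasi-likelihood with Benjamini-Hochberg adjustment), 3830 genes were high and 3988 low per length, and 3762 and 3899 by counts. Without a minimum beyond 1 count, 3593 genes were low per length and 3129 by counts. Other settings kept the counts of genes within 1.5 times those reported, at 1455 to 2338 high and 1638 to 2318 low per length, and at 1235 to 2132 and 1317 to 1953 by counts. Leaving out each library in turn gave 1863 to 2040 high and 2185 to 2384 low genes per length, and 1615 to 1755 and 1857 to 2039 by counts. With the replicate block, the library number taken as a pair, 1971 genes were high and 2311 low per length, and 1715 and 1942 by counts. Libraries of the same number correlated at −0.05 to 0.05 after gene means were removed, and 2 of 6 correlated best with their own number. Upper quartile scaling moved the centre by 0.12 on both scales, and the share of calls that were high from 46.4% to 54.0% per length and from 47.6% to 56.9% by counts. Of 3771 values of 185 named genes under alternatives, 3592 kept their direction and call or lack of one, 90 lost the call, 19 gained it and 70 took the other sign, 27 of them in called genes and 43 in others. By counts these were *Neurod2* −0.15, *Nrep* −1.20, *Cbln3* −1.19, *Cplx2* −2.03, *Lrp1b* 1.08, *Mtx1* 1.04, *Mlip* 1.29, *Cdh23* 1.43, *Rpl8* 0.43, *Cars* 0.14, *Gpx4* 0.0537, *Hsp90ab1* 0.21, *Zfp207* 0.20, *Kcnc1* −0.67, *Kcna2* −2.15, *Scn4b* −0.26, *Cacna1a* 0.35, *Vcan* 0.43, *Tek* 0.22 and *Zic1* −0.37. By uniquely mappable length they were *Gtpbp1* −0.0051, *Hbb-bs* 2.502, *Rps24* 3.46, *Rpl32* 1.16, *Eef1a1* 0.72, *Odc1* 0.59, *Oaz1* 2.28, *Gpx4* 0.21, *Cox7c* 0.36, *Gapdh* 0.43, *Hspa8* 2.46, *Atp6v1g1* 3.15, *Psmd2* 0.16, *Actg1* 0.84, *Srsf3* 5.18, *Kcnc1* −0.20, *Kcna2* −0.31, *Bcan* −0.0320, *P2ry12* −0.24, *Etv1* 1.08 and *mt-Nd3* 1.58. Over protein-coding transcripts alone they were *Mtx1* 0.12, *Cdh23* 1.42, *Ppp1r15b* 0.11, *Srsf2* 0.36, *Zfp207* 0.23, *Kcnc1* −0.19, *Kcna2* −0.20, *Mobp* 1.18 and *P2ry12* −0.14, and with a CDS length weighted by transcript *Mlip* 0.14, *Tfrc* −0.0108, *Zfp207* 0.0230, *Kcnc1* −0.0188 and *Kcna2* −0.0980. With upper quartile scaling they were *Rictor* 0.0532, *Zfp207* 0.12 and *Tek* 0.0133. *Zfp207*, at the centre, also took the other sign with a longer CDS (0.0020), in DESeq2 (0.0134), with its size factors (0.0139) and without the minimum (0.0230). *Fos* did so in limma (−0.38) and with the replicate block (−0.15). Leaving out each library in turn gave −0.0468 to 0.29 for *Gtpbp1*, −0.16 to 0.0355 for *Rictor*, −0.10 to 0.0857 for *Zfp207*, −0.9997 to 0.88 for *Fos* and −0.23 to 0.28 for *Kcnc1*. Of 984 list medians under alternatives 156 moved by more than 1 SD between footprint libraries and 39, in 19 lists, changed sign. The weighted CDS length, a CDS length longer by 29 bases and the set of unique genes were chosen after seeing the data. The cause of these moves was not tested. With 3 libraries of each assay, assay and batch are the same, TE has no absolute scale, and counts carry no position, so ribosomes that stall cannot be told apart from ribosomes that start more often. RNA without a poly(A) tail was not measured.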
